A study of Arabidopsis thaliana with 18 samples.

Results

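Cytochrome P450 and aldehyde dehydrogenase genes were taken as every gene whose symbol is CYP with a number and a letter, or ALDH with a number, among the probe sets annotated with exactly 1 gene. The rule found 33 of the 16542 genes measured in this way. They comprise 25 P450 genes, of which 21 belong to the subfamily CYP71B, and 8 aldehyde dehydrogenase genes. The other P450 genes are CYP78A9, CYP79A2, CYP79C2 and CYP84A4. Cyclophilins that carry a CYP name without a family letter are not included. The RefSeq gene table lists 236 CYP symbols of this form and 14 ALDH symbols, and those without a single-gene probe set here were not analysed here.

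P450 enzymes are heme-thiolate monooxygenases that take electrons from a P450 reductase and insert an oxygen atom into small molecules. In plants they build hormones, sterols, lignin precursors and defence compounds, and the CYP71 clan is prominent in specialised metabolism. Aldehyde dehydrogenases oxidise aldehydes to carboxylic acids with NAD or NADP, and several of them serve in stress tolerance and in cell wall phenolic metabolism.

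RNA was measured in root tips of Arabidopsis thaliana seedlings aged 5 days on 18 arrays in 6 groups of 3. The groups were wild type (Col), rlk7-3 and puchi-2, each without peptide (control) and with 1 µM TOLS2 for 3 h. TOLS2 is a small secreted root peptide. The genotypes are named for RLK7, a leucine-rich repeat receptor kinase, and for PUCHI, an AP2/ERF factor that patterns lateral root primordia. Each sample pooled about 80 root tips of 1 cm, and the labels do not describe the rlk7-3 and puchi-2 lesions. The design asks which transcripts change with TOLS2 and whether the change differs between genotypes.

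Levels are log2 values from RMA, and all differences below are on that log2 scale. The lowest correlation between 2 arrays was 0.983. The PUCHI probe set read 4.15 to 4.85 on wild-type control arrays and 5.04 to 5.45 on control arrays labelled puchi-2. It was thus not lower on the latter, and all arrays with this label are called puchi-2-labelled throughout. With TOLS2 the PUCHI probe set read 6.45 to 6.58 in wild type and 6.15 to 6.32 on puchi-2-labelled arrays. It rose by 1.96 in wild type and by 0.94 in puchi-2-labelled samples. The difference between these responses was -1.02 (limma, adjusted p = 0.709). No probe set was named for RLK7. The root hair gene EXPA7, the only root tip marker of 16 with a single-gene probe set, read 8.75 to 9.18 over all arrays. Its TOLS2 changes were 0.07 in wild type, 0.09 in rlk7-3 and 0.23 in puchi-2-labelled samples (limma, adjusted p = 0.797, 0.834 and 0.200). In wild type and puchi-2-labelled samples its treated arrays all lay above the controls, as for 6.78% and 7.38% of all probe sets. In these bulk samples, fewer cells of a type and less RNA per cell cannot be told apart.

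A single member, ALDH7B4, was called for a change with TOLS2. It rose by 0.39 in wild type and by 0.52 in puchi-2-labelled root tips, and its estimate in rlk7-3 was 0.12, which did not pass the test. A gene is called here at an adjusted p under 0.05 (limma, Benjamini-Hochberg over all 17481 probe sets with at least 1 gene, two-sided). In wild type 1 of 33 members was called, where 1.84% of all probe sets were called and 1.15% as higher. In rlk7-3 none of the 33 was called, against 0.00572% of all probe sets, and 2 members had an unadjusted p under 0.05 (7.18% of all probe sets). In puchi-2-labelled samples 1 of 33 was called, against 1.6% of all probe sets, 0.898% as higher.

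ALDH7B4 (AT1G54100, chromosome 1) encodes an antiquitin-like aldehyde dehydrogenase known in plants as a turgor- and stress-responsive enzyme. In wild type it read 9.54, 9.62 and 9.62 on the control arrays and 9.89, 10.02 and 10.04 with TOLS2. All 3 treated arrays lay above all 3 controls. The change was 0.39 (SE 0.09, 95% interval 0.20 to 0.58), or 1.31-fold, with an adjusted p of 0.0379 from limma. On puchi-2-labelled arrays the control values were 9.50, 9.50 and 9.57 and the TOLS2 values 9.89, 9.96 and 10.27. The groups again did not overlap, and the third TOLS2 array was the highest of all 18. The change was 0.52 (95% interval 0.33 to 0.71), or 1.43-fold, with an adjusted p of 0.0077.

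In rlk7-3 the ALDH7B4 values were 9.63, 9.64 and 9.78 without and 9.77, 9.74 and 9.91 with TOLS2. These groups overlapped, and the difference of 0.12 had a 95% interval of -0.07 to 0.31 (limma, adjusted p = 0.808). The response in rlk7-3 minus that in wild type was -0.27, with an interval of -0.54 to 0.0017 (limma, adjusted p = 0.484), so the responses were not shown to differ. The same difference for puchi-2-labelled arrays was 0.13. The wild-type call was lost when any single control array, or TOLS2 replicate 2 or 3, was left out, with adjusted p from limma between 0.0942 and 0.153. It was also lost without replicate 1, 2 or 3 of all groups (0.162, 0.53 and 0.157), when all rows of the table were tested (0.0531) and when only the arrays compared were fitted (0.0837). The puchi-2-labelled call held without any single array of its 2 groups, with adjusted p up to 0.0427, and was lost without replicate 1, 2 or 3 of all groups (0.0706, 0.203 and 0.0996) and when only the arrays compared were fitted (0.202).

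**Figure D1:**
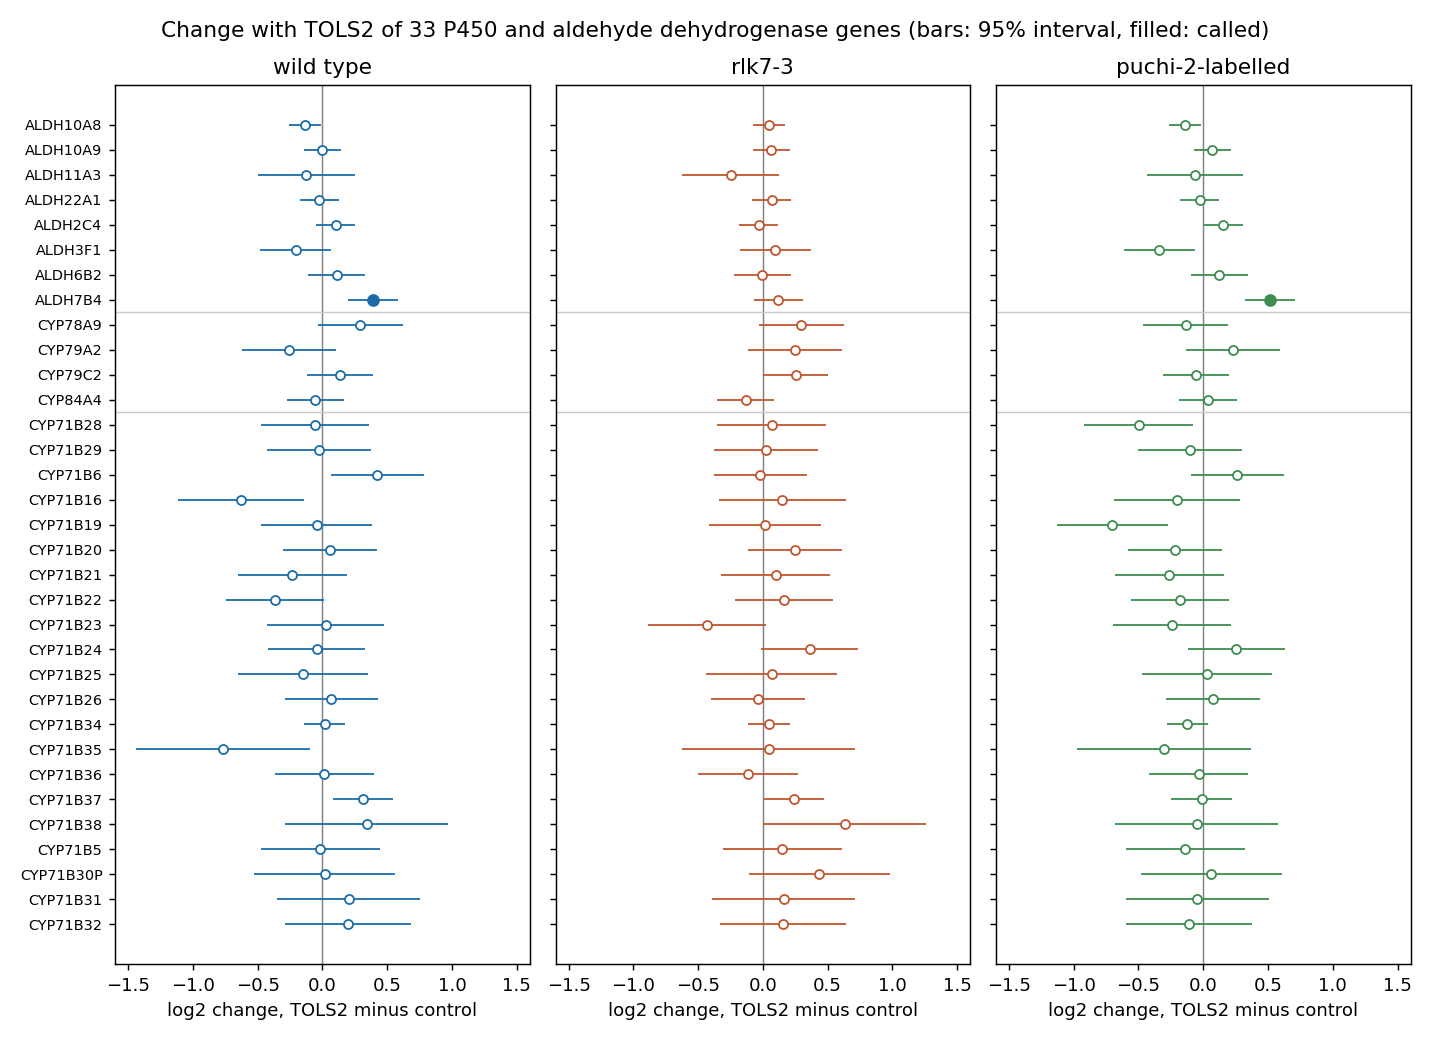
Log2 change with TOLS2 (horizontal axis) of each of the 33 genes (vertical axis) in wild type, rlk7-3 and puchi-2-labelled root tips, with the limma estimate as a point and its 95% interval as a bar; filled points are called. ALDH7B4 is the only filled point in wild type (0.39) and in puchi-2-labelled samples (0.52), and the rlk7-3 panel has none.

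CYP71B6 (AT2G24180, chromosome 2) is the member with the largest spread of group means among those called in any comparison. The enzyme converts indole-3-acetonitrile toward indole-3-carbaldehyde and indole-3-carboxylic acid, products of the indolic branch that also leads to camalexin. In wild type it read 8.73, 8.72 and 9.07 without and 8.99, 9.39 and 9.41 with TOLS2. In rlk7-3 it read 8.29, 8.46 and 8.33 without and 8.21, 8.35 and 8.46 with the peptide. Every rlk7-3 array lay below every wild-type array. On puchi-2-labelled arrays it read 8.38, 9.03 and 8.54 without and 8.64, 9.03 and 9.07 with TOLS2.

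The moderated F test over the 6 groups called 2 of 33 members, ALDH7B4 (adjusted p = 0.00843, limma) and CYP71B6 (adjusted p = 0.018, limma), against 4.15% of all probe sets. Without replicate 1, 2 or 3 of all groups both calls in that test were lost, with adjusted p of 0.108, 0.366 and 0.121 for ALDH7B4 and 0.0636, 0.257 and 0.382 for CYP71B6. The CYP71B6 call was also lost without wild-type TOLS2 replicate 2 (0.073) or 3 (0.0697) alone. The wild-type TOLS2 change of CYP71B6 was 0.42 (95% interval 0.06 to 0.78), the largest positive estimate of the 33, but its adjusted p from limma was 0.30. The estimates were -0.02 in rlk7-3 and 0.26 in puchi-2-labelled samples, neither called. The rlk7-3 response minus the wild-type response was -0.44 (limma, adjusted p = 0.539).

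A direct comparison of genotypes within the TOLS2 samples was added after the values were seen. Of rlk7-3 against wild type, 2 of 33 members were called, both lower, where 4.21% of all probe sets were called and 1.92% as lower. CYP71B6 was lower by -0.93 (SE 0.17, 95% interval -1.28 to -0.57), or 1.90-fold lower, with an adjusted p of 0.00515 from limma. Without replicate 2 or replicate 3 of all groups that adjusted p became 0.125 or 0.128, and it stayed called without any single array. Among control samples the same genotype difference was -0.48 (limma, adjusted p = 0.524). In neither condition did the 2 groups overlap. Over all probe sets, rlk7-3 and wild type did not overlap for 23.9% under TOLS2 (5.17% with rlk7-3 lower). Among controls that share was 15.4% (9.46% with rlk7-3 lower).

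ALDH2C4 (AT3G24503, chromosome 3), also known as REF1, oxidises sinapaldehyde and coniferaldehyde to the corresponding hydroxycinnamic acids. It read 11.78, 11.98 and 11.97 in wild type with TOLS2 and 11.68, 11.53 and 11.66 in rlk7-3 with TOLS2. On puchi-2-labelled arrays with TOLS2 it read 11.89, 11.91 and 12.01. The rlk7-3 values were below all the others, and those of wild type and puchi-2-labelled samples overlapped. The rlk7-3 difference from wild type was -0.29 (SE 0.07, 95% interval -0.44 to -0.14), with an adjusted p of 0.0343 from limma. That call was lost without wild-type TOLS2 replicate 2 or 3 or rlk7-3 TOLS2 replicate 2 or 3, with adjusted p of 0.0642 to 0.143. It was also lost without replicate 2 or 3 of all groups (0.426 and 0.29) and when only the arrays compared were fitted (0.25).

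Without peptide, ALDH2C4 read 11.78, 11.78 and 11.87 in wild type, 11.67, 11.66 and 11.63 in rlk7-3, and 11.68, 11.86 and 11.79 on puchi-2-labelled arrays. The rlk7-3 values were again below all wild-type values, by -0.15 on average, which was not called. TOLS2 changes were 0.10 in wild type, -0.03 in rlk7-3 and 0.16 in puchi-2-labelled samples, and none was called. In the latter all 3 treated arrays lay above the controls.

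ALDH3F1 (AT4G36250, chromosome 4) is a family 3 aldehyde dehydrogenase. With TOLS2 it read 6.60, 6.75 and 6.75 in wild type, 6.91, 6.87 and 6.92 in rlk7-3, and 6.63, 6.36 and 6.17 on puchi-2-labelled arrays. The rlk7-3 arrays were the highest and the puchi-2-labelled ones tended to be the lowest, with an overlap between the latter and wild type. A comparison of puchi-2-labelled with rlk7-3 samples under TOLS2, also added after the values were seen, called 2 of 33 members against 2.59% of all probe sets. ALDH3F1 was lower by -0.52 (SE 0.13, 95% interval -0.79 to -0.24; limma, adjusted p = 0.045), and ALDH2C4 was higher by 0.31 (limma, adjusted p = 0.0305). In the same comparison RCA, a green shoot marker described further on, was lower by -0.66 (limma, adjusted p = 0.028), and its part in these differences was not tested.

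The ALDH3F1 call was lost without any one of the rlk7-3 TOLS2 arrays or without puchi-2-labelled TOLS2 replicate 2 or 3, with adjusted p of 0.0893 to 0.154. It was also lost without replicate 1, 2 or 3 of all groups (0.0934, 0.207 and 0.411), when values were quantile-normalized again (0.0573), arrays were centred (0.085), all rows were tested (0.0625) or only the arrays compared were fitted (0.227). The ALDH2C4 call was lost without rlk7-3 or puchi-2-labelled TOLS2 replicate 2 or 3, with adjusted p of 0.0629 to 0.108, without replicate 1, 2 or 3 of all groups (0.0778, 0.33 and 0.322), and when only the arrays compared were fitted (0.268). Control values of ALDH3F1 were 6.84, 7.0 and 6.87 in wild type, 6.83, 6.84 and 6.75 in rlk7-3, and 6.52, 7.06 and 6.59 on puchi-2-labelled arrays. The second puchi-2-labelled control array was the highest of all 18.

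**Figure D2:**
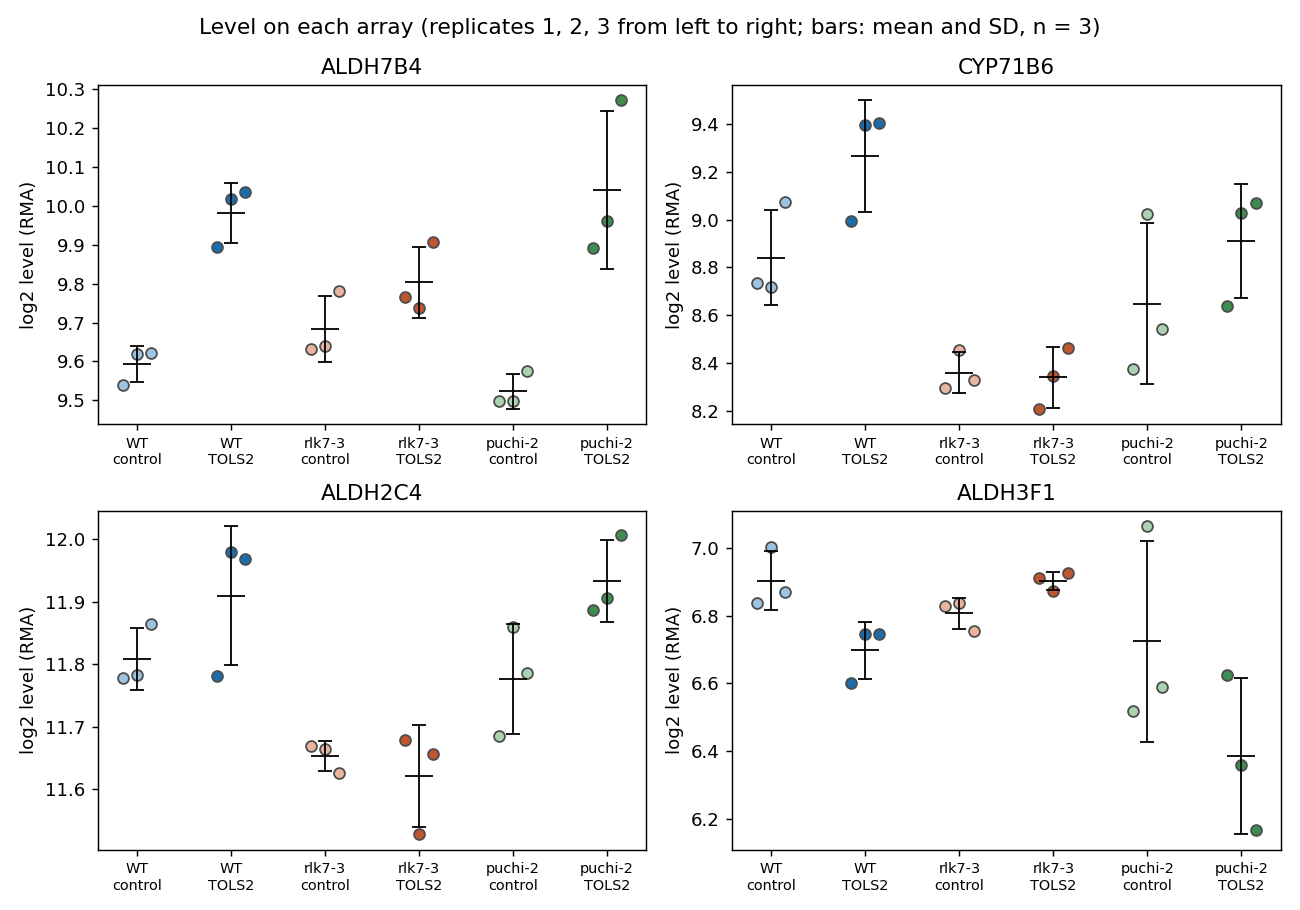
Log2 level (vertical axis) on each of the 18 arrays of ALDH7B4, CYP71B6, ALDH2C4 and ALDH3F1, by group (horizontal axis), with the mean and SD of 3 arrays. ALDH7B4 separates TOLS2 from control in wild type and puchi-2-labelled samples, and CYP71B6 is lower on all 6 rlk7-3 arrays than on all 6 wild-type arrays.

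The puchi-2-labelled samples gave 0 called members against wild type under TOLS2, where limma called 0.0744% of all probe sets. There 1 member had an unadjusted p under 0.05, against 8.66% of all probe sets. Between controls of rlk7-3 and wild type limma called 0 of 33 members (0.0515% of all probe sets), and 3 had an unadjusted p under 0.05 (7.4%). Between puchi-2-labelled and wild-type controls it called 0 (0.0172%), with 1 member at an unadjusted p under 0.05 (6.25%). Between puchi-2-labelled and rlk7-3 controls it called 0 (0.0286%), with 3 members at an unadjusted p under 0.05 (5.05%). The TOLS2 response in rlk7-3 minus that in wild type gave 0 calls by limma (0.383%), with 2 members, ALDH10A8 and CYP71B16, at an unadjusted p under 0.05 (10.5%). For the puchi-2-labelled response it gave 0 calls (0%), with 1 member, CYP71B19, at that level (4.05%).

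The remaining aldehyde dehydrogenases were not called in any comparison of the fit used here. With an intensity trend and robust prior ALDH10A8 was called in rlk7-3 against wild type under TOLS2, where its difference was 0.17 (limma, adjusted p = 0.12 without that prior). ALDH10A8 and ALDH10A9 encode aminoaldehyde dehydrogenases that can act on betaine aldehyde. ALDH10A8 (AT1G74920, chromosome 1) read 10.58, 10.69 and 10.67 in wild-type controls and 10.43, 10.54 and 10.57 with TOLS2. The treated arrays were all lower, with a difference of -0.14 (95% interval -0.26 to -0.01; limma, adjusted p = 0.339). On puchi-2-labelled arrays it read 10.74, 10.71 and 10.67 without and 10.62, 10.59 and 10.50 with TOLS2, again without overlap and with a difference of -0.14. In rlk7-3 the values were 10.62, 10.62 and 10.66 without and 10.68, 10.66 and 10.70 with TOLS2. There the treated arrays were all slightly higher, by 0.04, while the median over all tested probe sets was 0.06.

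ALDH10A9 (AT3G48170, chromosome 3) ranged from 9.14 to 9.40 over the 18 arrays, with TOLS2 changes of -0.0013 in wild type, 0.06 in rlk7-3 and 0.07 in puchi-2-labelled samples. ALDH22A1 (AT3G66658, chromosome 3), a member of a plant-specific family, ranged from 9.62 to 9.91 with changes of -0.02, 0.07 and -0.03 in the same order. ALDH6B2 (AT2G14170, chromosome 2), the methylmalonate-semialdehyde dehydrogenase of valine breakdown in mitochondria, ranged from 9.09 to 9.57 with changes of 0.11, -0.0051 and 0.13. These probe sets had SE of 0.07 to 0.10, so their wild-type intervals kept within 0.33 of 0. ALDH11A3 (AT2G24270, chromosome 2), the non-phosphorylating glyceraldehyde-3-phosphate dehydrogenase, was the dimmest ALDH probe set at 3.52 to 4.41. Its changes were -0.12, -0.25 and -0.06, and in rlk7-3 its 3 treated arrays (4.29, 3.99 and 4.02) lay below the controls (4.31, 4.41 and 4.33).

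The CYP71B subfamily holds 21 of the 25 P450 genes measured. Its best known member, CYP71B15 (PAD3), completes camalexin and was not analysed here. None of the 21 was called for TOLS2 in any genotype in the fit used here. In wild type 11 estimates were above 0, against 39.3% of all probe sets, and 10 below, with a median of 0.01 against -0.04 over all tested probe sets. In rlk7-3, 17 of 21 were above 0, where 70.1% of all probe sets were. In puchi-2-labelled samples 5 of 21 were above 0, against 46% of all probe sets, with a median of -0.11.

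The CYP71B estimates of a TOLS2 change that were largest in size came from dim probe sets. The largest positive one in wild type was that of CYP71B6, at a mean level of 8.73. CYP71B35 (AT3G26310) read 4.12, 4.70 and 4.42 in wild-type controls and 3.90, 4.24 and 2.80 with TOLS2. The third treated array alone was far below the rest, and the difference of -0.77 had an interval of -1.44 to -0.10 (limma, adjusted p = 0.320). CYP71B16 (AT3G26150) read 3.52, 4.04 and 3.82 without and 3.09, 3.33 and 3.06 with TOLS2. Its groups did not overlap, and the difference was -0.63 (limma, adjusted p = 0.239). On puchi-2-labelled arrays CYP71B19 (AT3G26170) read 3.60, 3.57 and 3.14 without and 2.90, 2.58 and 2.74 with TOLS2, without overlap, a difference of -0.70 (limma, adjusted p = 0.111). That difference was called with array weights.

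In rlk7-3 the largest positive estimate was that of CYP71B38 (AT3G44250), at 3.60, 3.31 and 3.30 without and 4.47, 3.79 and 3.85 with TOLS2. The treated arrays were all higher, by 0.63 (95% interval 0.0022 to 1.26; limma, adjusted p = 0.696). The most negative estimate there was that of CYP71B23 (AT3G26210), which read 5.48, 6.09 and 6.0 without and 5.26, 5.43 and 5.60 with TOLS2, a difference of -0.43. With TOLS2 its wild-type values were 5.84, 6.36 and 6.30, all above those of rlk7-3. That genotype difference of -0.74 was not called (limma, adjusted p = 0.0657). It was called with an intensity trend and robust prior, with array weights, and with replicate number as a block, a pairing that the labels do not state.

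CYP71B37 (AT3G26330) had TOLS2 arrays above the controls in both wild type and rlk7-3. It read 4.77, 5.00 and 4.87 without and 5.42, 5.09 and 5.06 with TOLS2 in wild type, a difference of 0.31 (limma, adjusted p = 0.217). In rlk7-3 the difference was 0.24 and was not called either. On puchi-2-labelled arrays it was -0.01, and the control arrays there (5.08, 5.27 and 5.25) lay above the wild-type controls. Of all probe sets, 6.78% were higher with TOLS2 without overlap in wild type, 12% were lower there, and 10.6% were higher in rlk7-3. Puchi-2-labelled controls lay above all wild-type controls for 6.44%. CYP71B22 (AT3G26200), among the dimmest at 1.27 to 1.98, was lower on all 3 wild-type TOLS2 arrays, by -0.37, and CYP71B20 (AT3G26180) was higher on all 3 rlk7-3 TOLS2 arrays, by 0.25, neither of them called.

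The CYP71B genes are clustered on the chromosomes. In the gene order of assembly TAIR10.1, 13 of them form a run on chromosome 3, from CYP71B16 to CYP71B37, each at most 5 protein-coding genes from the previous one. A run of 4 on the same chromosome holds CYP71B5, CYP71B30P, CYP71B31 and CYP71B32, where the P marks a pseudogene, and CYP71B28 and CYP71B29 are neighbours on chromosome 1. Tandem paralogs can share probe signal, and the probe sequences were not used here, so values of neighbours may not be separate measurements. No 2 member probe sets held identical values.

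Along the chromosome 3 run the estimates of neighbours had both signs. In wild type, 6 of the 13 estimates were above 0 and 7 below, from -0.77 (CYP71B35) to 0.31 (CYP71B37), with a median of -0.04. CYP71B35 and its next neighbours CYP71B34 and CYP71B36 differed, at -0.77 against 0.02 and 0.01. In rlk7-3, 10 of 13 were above 0, from -0.43 (CYP71B23) to 0.36 (CYP71B24). In puchi-2-labelled samples 3 of 13 were above 0, from -0.70 (CYP71B19) to 0.25 (CYP71B24). None of the 13 was called for TOLS2 in any genotype in the fit used here.

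**Figure D3:**
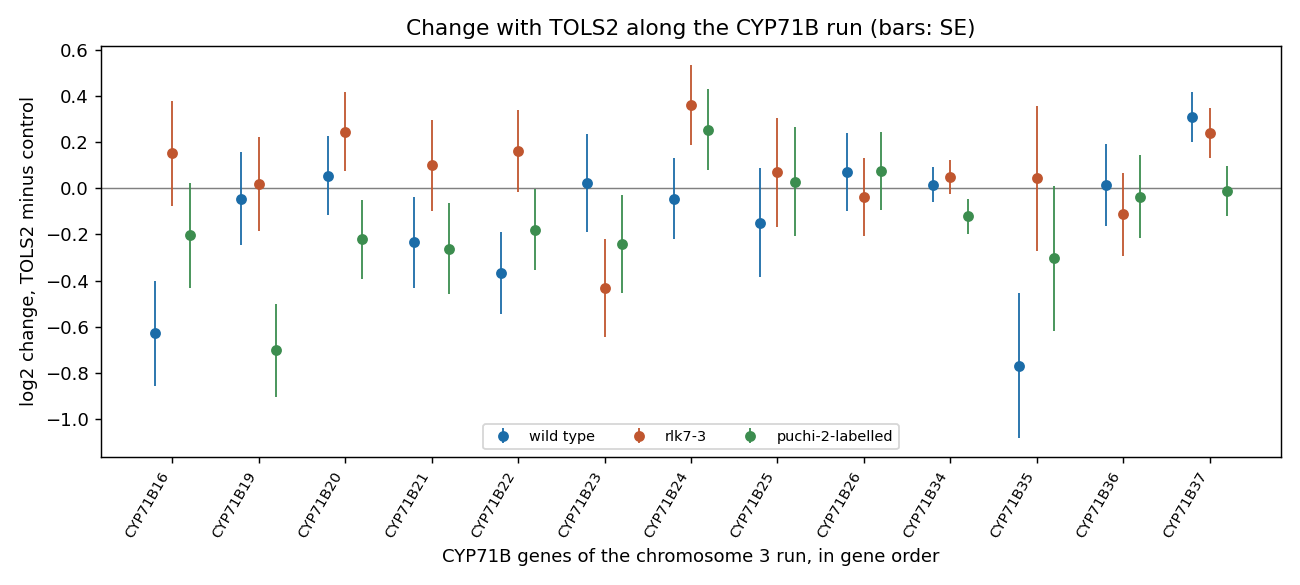
Log2 change with TOLS2 (vertical axis) of the 13 CYP71B genes of the chromosome 3 run, in gene order (horizontal axis), for wild type, rlk7-3 and puchi-2-labelled root tips; points are limma estimates and bars their SE. Neighbouring genes have estimates of either sign, from -0.77 for CYP71B35 to 0.31 for CYP71B37 in wild type.

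In the run of 4, wild-type changes were -0.02 for CYP71B5, 0.02 for CYP71B30P and 0.20 for both CYP71B31 and CYP71B32, none called. The neighbours CYP71B28 and CYP71B29 differ in signal, at means of 4.28 and 8.39 over the arrays. CYP71B29 had estimates of -0.03, 0.02 and -0.10 in wild type, rlk7-3 and puchi-2-labelled samples. CYP71B28 had -0.06, 0.07 and -0.50, the last with a 95% interval of -0.92 to -0.08 (limma, adjusted p = 0.279).

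Among control samples, 4 of the 21 CYP71B estimates for rlk7-3 against wild type were above 0, where 44.9% of all probe sets were, with a median of -0.18. For puchi-2-labelled against rlk7-3 controls 18 of 21 were above 0, against 53.6% of all probe sets. Both comparisons use the same rlk7-3 control arrays. The most precise of these estimates were for CYP71B34 (AT3G26300), at -0.19 for rlk7-3 against wild type and 0.32 for puchi-2-labelled against rlk7-3. Neither was called (limma, adjusted p = 0.604 and 0.297).

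The P450 genes of the other families were not called in any comparison of the fit used here. CYP79 enzymes turn amino acids into aldoximes, and CYP79A2 (AT5G05260, chromosome 5) forms phenylacetaldoxime from phenylalanine for benzylglucosinolate. It read 3.53, 3.60 and 3.63 in wild-type controls and 3.26, 3.03 and 3.71 with TOLS2, overlapping groups with a difference of -0.26. In rlk7-3 it read 3.72, 3.33 and 3.74 without and 3.77, 3.90 and 3.85 with TOLS2, where the treated arrays were all higher by a mean of 0.25. Under TOLS2 the rlk7-3 level exceeded that of wild type by 0.51 (95% interval 0.15 to 0.87), which was not called (limma, adjusted p = 0.109). That difference was called with replicate number as a block, a pairing that the labels do not state. CYP79C2 (AT1G58260, chromosome 1) ranged from 3.37 to 3.88, with TOLS2 changes of 0.14 in wild type, 0.25 in rlk7-3 and -0.05 in puchi-2-labelled samples.

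CYP78A9 (AT3G61880, chromosome 3) promotes organ growth, chiefly of fruits and seeds. Its probe set was dim at 2.12 to 2.85, and its TOLS2 changes were 0.29, 0.30 and -0.14 in wild type, rlk7-3 and puchi-2-labelled samples. CYP84A4 (AT5G04330, chromosome 5) acts in the synthesis of arabidopyrones, metabolites that derive from the phenylpropanoid pathway. It ranged from 6.23 to 6.66 with changes of -0.06, -0.13 and 0.04. In rlk7-3 its treated arrays (6.34, 6.39 and 6.36) lay just below the controls (6.47, 6.41 and 6.60).

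Counts of members with no overlap between treated and control values stood near or above those of all probe sets. In wild type they were 6 of 33 (18.2%), against 18.7% of all probe sets, and in puchi-2-labelled samples 5 of 33 (15.2%), against 17.2%. In rlk7-3 they were 9 of 33 (27.3%), against 12.2%. Of these, 7 were higher, against 10.6% of all probe sets, and 2 lower, against 1.6%. None of those 9 was called. Over all 33 members the median change was -0.0013 in wild type, 0.07 in rlk7-3 and -0.05 in puchi-2-labelled samples, beside -0.04, 0.06 and -0.01 over all tested probe sets.

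Precision tended to follow the level, but the SE ranges of bright and dim members overlapped. The 11 members with a mean level above 6, of which 7 are ALDH genes and 4 are P450 genes, had SE of 0.06 to 0.19 for a TOLS2 change. The other 22, all P450 genes but for ALDH11A3, had SE of 0.11 to 0.31. The 95% interval of the wild-type change lay within 2-fold in either direction for 31 of 33 members, all but CYP71B16 and CYP71B35, against 96.6% of all probe sets. In rlk7-3 it did so for 32 members, all but CYP71B38 (97.9%), and in puchi-2-labelled samples for 32, all but CYP71B19 (96.6%). Smaller changes of the dim members were not resolved by 3 arrays a group, and levels of different probe sets are not amounts that can be compared.

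**Figure D4:**
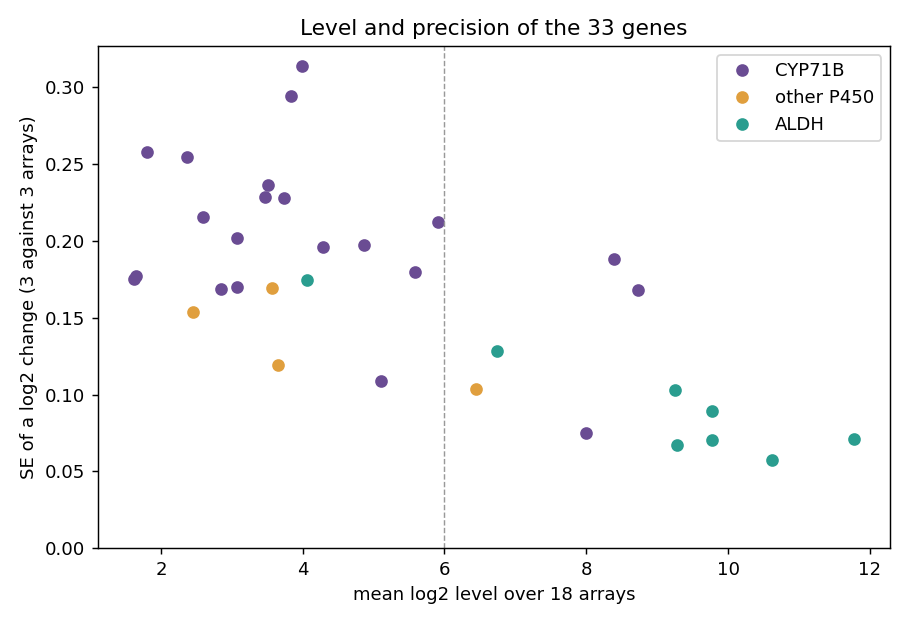
SE of a log2 TOLS2 change with 3 against 3 arrays (vertical axis) against the mean log2 level over 18 arrays (horizontal axis) for the 33 genes, coloured as CYP71B, other P450 and ALDH; the dashed line marks a level of 6. Most ALDH probe sets lie at high level and low SE, and most CYP71B probe sets at low level with SE up to 0.31.

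Genes that act beside these enzymes were taken from lists of 203 names, of which 17 were measured, 11 of them members. Measured here means that a probe set was annotated with that gene alone. In the phenylpropanoid list 3 of 18 names were measured, namely CYP84A4, HCT and CCR2. CCR2 (AT1G80820), a cinnamoyl-CoA reductase that makes hydroxycinnamaldehydes of the kind on which ALDH2C4 acts, was the one called. In wild type its values ran from 8.54 to 8.80 in controls and from 9.08 to 9.41 with TOLS2. It rose by 0.55 there (limma, adjusted p = 0.0382) and by 0.56 in puchi-2-labelled samples (limma, adjusted p = 0.0395). The rlk7-3 estimate was 0.16 and not called. CCR2 had a rlk7-3 response minus wild-type response of -0.39 (limma, adjusted p = 0.468), so a difference was not shown. Under TOLS2 it was lower in rlk7-3 than in wild type by -0.60 (limma, adjusted p = 0.015), a call lost without wild-type TOLS2 replicate 2 or 3 or rlk7-3 TOLS2 replicate 2 (0.0811, 0.0534 and 0.0516), without replicate 2 or 3 of all groups (0.278 and 0.171) and when only the arrays compared were fitted (0.0594). The wild-type call was lost when any 1 of its 6 arrays but TOLS2 replicate 1 was left out (limma, adjusted p of 0.0641 to 0.185) and without replicate 2 or 3 of all groups (0.695 and 0.274). The puchi-2-labelled call was lost when any 1 of its arrays but TOLS2 replicate 3 was left out (0.0641 to 0.178) and without replicate 1, 2 or 3 of all groups (0.262, 0.306 and 0.15). Both were lost when all rows were tested (0.0553 and 0.0545) or only the arrays compared were fitted (0.107 and 0.266).

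HCT (AT5G48930), a hydroxycinnamoyl transferase of the same pathway, was 10.67 to 10.70 in wild-type controls and 10.85 to 10.97 with TOLS2, a difference of 0.21 (limma, adjusted p = 0.0665). In the indolic list 2 of 32 names were measured, CYP71B6 and the glucosyltransferase UGT74B1, which had changes of 0.19 in wild type and 0.38 in puchi-2-labelled samples, neither called. From the aliphatic glucosinolate list 1 of 11 names was measured, the glucosyltransferase UGT74C1 (AT2G31790). It had a TOLS2 change of -0.33 in wild type, not called. In rlk7-3 with TOLS2 it was higher than in wild type with TOLS2 by 0.58 (limma, adjusted p = 0.0224), a call lost without wild-type TOLS2 replicate 2 or 3 or rlk7-3 TOLS2 replicate 1 (0.0614, 0.0949 and 0.092), without replicate 2 or 3 of all groups (0.254 and 0.16) and when only the arrays compared were fitted (0.0732). In 9 of 16 lists, among them those for brassinosteroid, gibberellin, jasmonate and suberin, no name had a single-gene probe set.

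A marker of green shoot tissue read lower with TOLS2 in the genotypes where ALDH7B4 and CCR2 were called. RCA, the Rubisco activase gene, was the only marker of 9 such genes with a single-gene probe set. It ran from 7.80 to 8.13 in wild-type controls and from 7.12 to 7.40 with TOLS2, and from 7.54 to 7.78 and from 6.95 to 7.42 on puchi-2-labelled arrays. In rlk7-3 it ran from 7.60 to 7.94 without and from 7.63 to 8.09 with TOLS2. The wild-type change was -0.65 (limma, adjusted p = 0.0355) and that of puchi-2-labelled samples -0.51 (adjusted p = 0.117), and the wild-type call was lost without any one of the 6 arrays (0.0531 to 0.162), without replicate 1, 2 or 3 of all groups (0.134, 0.517 and 0.0826), when all rows were tested (0.0524) and when only the arrays compared were fitted (0.0722). The rlk7-3 response of RCA minus its wild-type response was 0.68 (limma, adjusted p = 0.245, not called). Under TOLS2 RCA was higher in rlk7-3 than in wild type by 0.50 (limma, adjusted p = 0.0739, not called). It was lower on puchi-2-labelled than on rlk7-3 arrays by -0.66 (limma, adjusted p = 0.028), a call lost without rlk7-3 TOLS2 replicate 3 or puchi-2-labelled TOLS2 replicate 1 or 2 (0.109, 0.0819 and 0.104), without replicate 1 or 2 of all groups (0.163 and 0.285) and when only the arrays compared were fitted (0.256). Its part in the results above was not tested.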

How the data were processed

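The authors deposited log2 levels per probe set made with RMA, per the submitters' processing notes. Its version, the probe set definition and the build were not given in the sources used here. Values ran from 0.38 to 13.98 and were used as deposited. RMA equalises array distributions, which hides global shifts, and compresses changes of dim probe sets. The platform annotation named 1 gene for 16722 of 38408 rows, several for 759 and none for 20927 (54.5%). Symbols were updated by Entrez identifier with the RefSeq table of TAIR10.1, which matched all 33 members. No member had several rows.

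Samples were grouped by title. The labels call the 3 arrays of a group biological replicates; nothing says whether they came from separate cultures. The tests used limma 3.58.1 in R 4.3.3 (6 group means, 12 residual degrees of freedom), checked on simulated data, with 7 planned comparisons, an F test and 4 comparisons added after values were seen. The simulated arrays had independent noise, so that check could not cover deviations shared by same-numbered arrays. Same-numbered wild-type and puchi-2-labelled TOLS2 arrays deviated together (correlations of 0.35, 0.15 and 0.18), so the replicate number may pair them; the block left 0 members called there. Alternatives were other normalizations, priors, weights, rows, arrays, thresholds and left-out arrays. Named are all ALDH genes, called members, members of function lists, those whose treated and control arrays did not overlap, the largest changes per family and their neighbours. Members and lists were chosen with earlier results of these data known. One name of a P450 list matched an unrelated F-box gene and was dropped.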

Additional observations from a re-analysis of the deposited data

Results flagged for a closer look

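Opposite directions without overlap between treated and control arrays were seen for ALDH10A8 and ALDH3F1 in wild type and rlk7-3. Of all probe sets, 12% were lower without overlap in wild type and 10.6% were higher without overlap in rlk7-3. The share with both was not computed. The rlk7-3 minus wild-type response was above 0 for 70.4% of all probe sets. For ALDH10A8 the TOLS2 change was -0.14 in wild type and 0.04 in rlk7-3, and the difference between them was 0.18 (limma, unadjusted p = 0.0411, adjusted p = 0.454). For ALDH3F1 the changes were -0.21 and 0.10, with a difference of 0.30 (limma, unadjusted p = 0.118, adjusted p = 0.585). Neither difference was called. The median over all tested probe sets was -0.04 in wild type and 0.06 in rlk7-3, and the rlk7-3 change of ALDH10A8 was below that median.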

How the results depend on the processing

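Counts of called members depended on the setting, and no named call reversed its direction under any alternative run. For TOLS2 in wild type (1 called), the count was 0 when all rows of the table were tested, when only the arrays compared were fitted and at a change of at least 2-fold, and 0 to 1 when arrays were left out. In puchi-2-labelled samples (1 called) it was 2 with array weights, which added CYP71B19, 0 with only the arrays compared and 0 at 2-fold, and 0 to 1 with arrays left out. The F test (2 called) gave 5 with array weights, 4 with the replicate block, 4 on rows above the median level, and 0 to 3 with arrays left out. For rlk7-3 against wild type under TOLS2 (2 called) it was 4 with an intensity trend and robust prior (ALDH2C4, ALDH10A8, CYP71B6 and CYP71B23), 4 with the replicate block (ALDH2C4, CYP71B6, CYP71B23 and CYP79A2), 1 with only the arrays compared, 0 at 2-fold, and 0 to 3 with arrays left out. For puchi-2-labelled against rlk7-3 under TOLS2 (2 called) it was 1 after renewed quantile normalization, 1 after centring, 1 over all rows, 0 with only the arrays compared, 0 at 2-fold, and 0 to 2 with arrays left out. Fitting only the arrays compared or leaving arrays out uses fewer samples, and testing all rows adjusts over more; for the other settings the cause was not tested. All other counts were 0 by limma under every alternative run. Of 250 recomputed counts, 204 stayed within 1.5 times the reported one, 40 fell and 6 rose.

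Same-numbered arrays had correlations of their deviations from -0.07 to 0.35 in 7 pairs of groups, and 17 of 18 arrays correlated best with their own number, a hint from the data and not from the design. With the replicate block CCR2 in wild type had an adjusted p of 0.0501 (limma). The block ended no call of a member. The alternative of taking the lowest-mean row of a gene could not be run, since no member had several rows. Signal over background limits what can be said of the 22 dim members.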

Other observations

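Some members followed the replicate number in all 6 groups. Replicate 1 was the lowest array of its group in all 6 groups for ALDH6B2, CYP71B28 and CYP71B29, where 2.94% of all tested probe sets did the same. For CYP71B29, replicate 1 read 7.95 to 8.24 and the other arrays 8.40 to 8.64. Replicate 3 was the highest array of its group in all 6 groups for ALDH7B4, where 1.03% of all probe sets did the same.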
